A study of Mus musculus with 6 samples.

Results

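Transcripts of the enzymes of the pentose phosphate pathway and of the cytosolic enzymes that make NADPH were measured in cultured mouse cells of a line called PPP3R1, after 6 h of starvation and in normal medium. The genes were G6pdx, Pgls, Pgd, Tkt, Taldo1, Rpia, Me1 and Idh1, chosen by name but with earlier results of these data known. Every probe set that the platform annotation maps to a single gene of the list was used. This gave 13 probe sets for 7 of the 8 genes, out of 22626 probe sets and 12393 genes tested. G6pdx, which encodes the first enzyme of the pathway, was not analysed here, and none of the values below describes it. PPP3R1 also names the regulatory subunit of the phosphatase calcineurin; how the line relates to that gene is not stated in the labels.

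The design has 2 groups of 3 arrays, both of the PPP3R1 line according to the sample titles. The starved group was deprived for 6 h in a medium whose make-up the labels leave unstated, and the control group was grown in normal medium. The titles and the series design take the PPP3R1 line as its own control, whereas the growth and treatment protocols name wild-type MEFs (mouse embryonic fibroblasts) as the control cells, and every difference below carries this conflict. Replicates are called biological in the titles, but separate cultures are not mentioned, and the p-values here cover only the spread among these 6 samples, which may be technical. Values are log2 levels made by RMA, and a change is starved minus control on this log2 scale with its standard error (SE) from limma and n = 3 per group. A gene was called where the adjusted p (Benjamini-Hochberg over all 22626 probe sets) was under 0.05, and a gene with several probe sets was represented by its brightest. In bulk RNA, fewer cells of a type and less RNA per cell cannot be told apart.

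The pentose phosphate pathway branches from glycolysis at glucose 6-phosphate. Its oxidative arm, made up of glucose-6-phosphate dehydrogenase, a lactonase and phosphogluconate dehydrogenase, yields NADPH and ribulose 5-phosphate. The reversible arm, with ribose-phosphate isomerase, transketolase and transaldolase, makes ribose 5-phosphate for nucleotides or returns carbon to glycolysis. Cytosolic malic enzyme and cytosolic isocitrate dehydrogenase are further sources of NADPH, which is spent on fatty acid and sterol synthesis and on the reduction of glutathione and thioredoxin.

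As checks of the material, 9 of 10 fibroblast markers lay above the level of 5 used here as a limit for dim probe sets, while the surface marker Thy1 did not (4.80 in control cells). All 4 endothelial markers, 3 of 5 epithelial, 3 of 5 leukocyte and 2 of 4 neural and glial markers lay below that level in both groups. Those above it were the keratin genes Krt8 (5.16 in control cells) and Krt19 (5.24), the monocyte marker genes Cd14 (8.34) and Cd68 (6.25), and the neuronal genes Tubb3 (6.26) and Map2 (5.50). Several markers moved with starvation (limma adjusted p at most 0.00548 in each gene named): Map2 by 0.74 ± 0.09, Tubb3 by 0.46 ± 0.09, Cd68 by 0.43 ± 0.06, Cd14 by -0.32 ± 0.06 and the epithelial Cdh1, itself below the limit, by 0.50 ± 0.08. Of the fibroblast markers 4 rose, and Pdgfrb fell by 0.81 ± 0.07. The mean log2 level of the fibroblast markers lay between 11.55 and 11.60 on the control arrays and between 11.68 and 11.71 on the starved arrays, and that of the neural and glial markers between 4.66 and 4.81 in control and 5.03 and 5.09 in starved cells. In the same order, the control and starved ranges were 4.29 to 4.38 and 4.39 to 4.52 for epithelial markers, 5.11 to 5.33 and 5.18 to 5.21 for leukocyte markers, and 3.79 to 3.96 and 3.85 to 4.22 for endothelial markers. Array medians were between 6.74 and 6.78, and the correlation over all probe sets was 0.998 within groups and 0.986 to 0.988 between them. The 3 prime minus 5 prime difference of the Gapdh control probe sets was -0.11 to -0.00 (log2) in control and -0.15 to -0.11 in starved arrays, and that of the beta-actin sets was 0.03 to 0.08 in both groups. The part of the marker changes and of these differences in the results was not tested.

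Idh1 and Rpia fell, Taldo1 and Tkt rose, and Pgd, Pgls and Me1 did not pass in their brightest probe sets. Of the 7 genes, 2 were called lower and 2 higher, against 20.1% and 20.8% of all 12393 genes (40.8% in either direction). The median change of the 7 genes was -0.08, with a median size of 0.17, against -0.01 and 0.16 over all genes. Their groups of arrays did not overlap in 5 of the 7 genes, against 52.5% of all genes. Counted over probe sets, 3 of the 13 were called higher and 4 lower, against 20.3% and 19.2% of all probe sets (39.5% in either direction). Every member probe set lay well above the dim limit, with a lowest value on any array of 7.66.

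**Figure D1:**
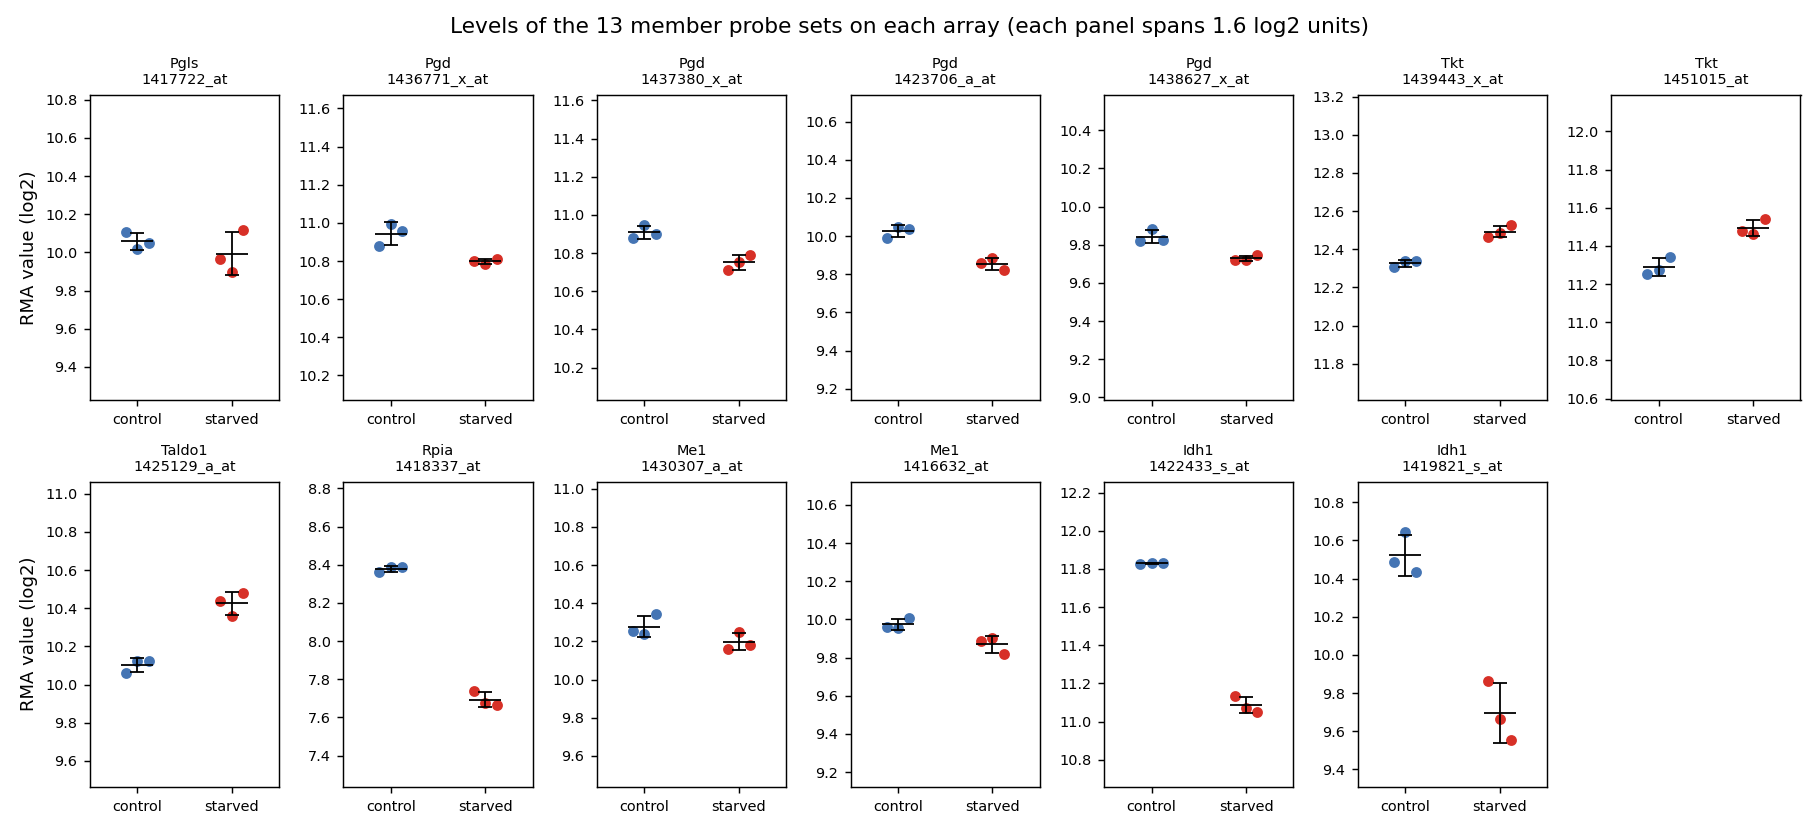
RMA values (log2) of the 13 member probe sets, 1 panel each, with the 3 control arrays in blue and the 3 starved arrays in red, and a black bar for the mean with its SD. The panels of Idh1 and Rpia show the widest gaps between groups, and Pgls and the brighter Me1 probe set show overlapping groups.

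Idh1 encodes the cytosolic and peroxisomal isocitrate dehydrogenase, which makes NADPH while it converts isocitrate to 2-oxoglutarate. Its brighter probe set, 1422433_s_at, read 11.83 on each of the 3 control arrays. The starved arrays read 11.13, 11.07 and 11.05. All starved values lay below all control values, and the control arrays were almost identical (SD 0.00347). The change was -0.74 ± 0.05 (limma adjusted p = 3.01e-05), a level 1.67-fold lower or 59.7% of control. Idh1's other probe set, 1419821_s_at, read 10.49, 10.64 and 10.44 in control and 9.87, 9.66 and 9.56 in starved cells, a change of -0.83 ± 0.09 (limma adjusted p = 0.000274). The 2 probe sets of Idh1 thus moved the same way by similar amounts, with a wider spread in the dimmer set. Names of both end in _s_at, which marks probe sets that can match several transcripts. Only 6.64% of all genes changed by as much as Idh1 or more.

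Rpia encodes ribose-5-phosphate isomerase, which turns ribulose 5-phosphate into ribose 5-phosphate, the sugar of nucleotides. It rests on a single probe set, 1418337_at, with control values of 8.36, 8.39 and 8.39 and starved values of 7.74, 7.68 and 7.66. The gap between the groups was many times the spread within either. Rpia fell by 0.69 ± 0.05 on the log2 scale (limma adjusted p = 4.23e-05), to 62.1% of control, a size matched or passed by 7.92% of all genes.

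Taldo1 encodes transaldolase, which moves a dihydroxyacetone unit between sugar phosphates in the reversible arm. Its probe set read 10.06, 10.12 and 10.13 in control and 10.44, 10.36 and 10.48 in starved cells. Every starved array was above every control array. The rise was 0.32 ± 0.06 (limma adjusted p = 0.00277), or 1.25-fold.

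Tkt encodes transketolase, which uses thiamine diphosphate to move a glycolaldehyde unit between sugar phosphates. Its brighter probe set, 1439443_x_at, read 12.30, 12.34 and 12.34 in control and 12.47, 12.49 and 12.52 in starved cells. The groups were separate, although the rise of 0.17 ± 0.05 (limma adjusted p = 0.0347) is only 1.12-fold. The other probe set of Tkt, 1451015_at, read 11.25, 11.27 and 11.34 in control and 11.48, 11.46 and 11.54 in starved cells, a rise of 0.20 ± 0.06 (limma adjusted p = 0.0212). The call of the brighter set was lost on leaving out any 1 of the 6 arrays (limma adjusted p from 0.0578 without starved replicate 1 to 0.114 without starved replicate 3), and the alternatives for the gene gave 0.000328 to 0.114. That of the other set was lost without control replicate 1 (0.0687), control replicate 2 (0.0631) or starved replicate 3 (0.0784).

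**Figure D2:**
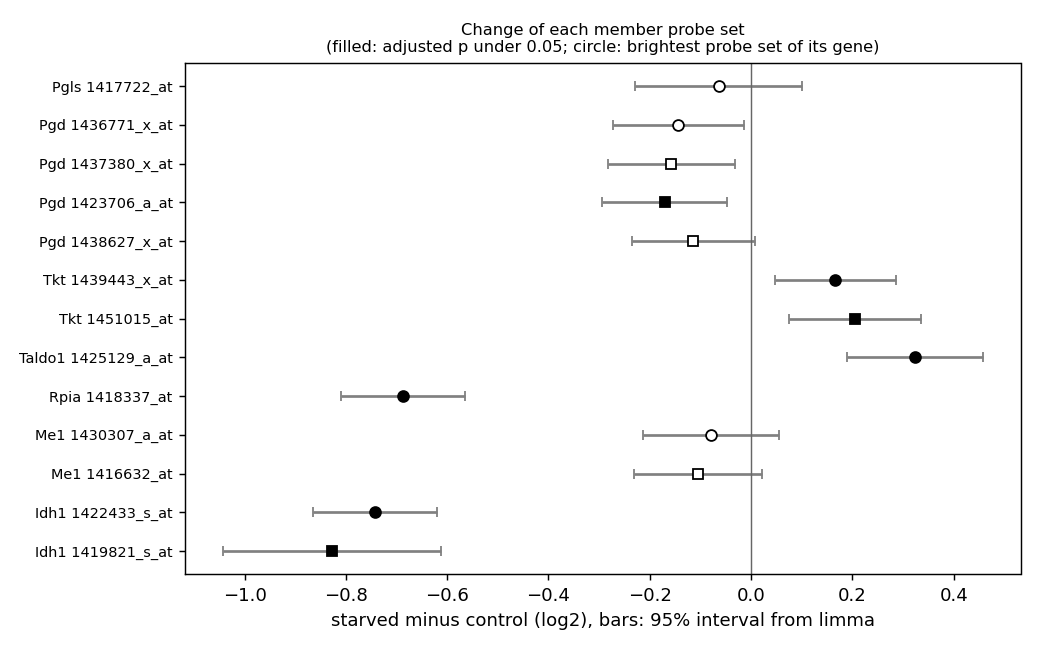
Change of each member probe set, starved minus control (log2), with its 95% interval from limma; filled points passed an adjusted p of 0.05 and circles are the brightest set of a gene. The 2 Idh1 sets and Rpia lie between -0.83 and -0.69, Tkt and Taldo1 between 0.17 and 0.32, and the remaining sets between -0.17 and -0.06.

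Pgd encodes phosphogluconate dehydrogenase, the second NADPH-producing enzyme of the oxidative arm, and was measured by 4 probe sets. The brightest, 1436771_x_at, read 10.88, 11.00 and 10.96 in control and 10.80, 10.79 and 10.81 in starved cells, and the difference of -0.14 ± 0.06 missed the threshold (limma adjusted p = 0.0776, 95% interval -0.27 to -0.01). The set 1423706_a_at read 9.99, 10.05 and 10.04 against 9.86, 9.88 and 9.82, and it passed with a change of -0.17 ± 0.05 (limma adjusted p = 0.0352). The other 2 sets differed by -0.16 ± 0.05 (adjusted p = 0.0516) and -0.11 ± 0.05 (adjusted p = 0.126). In all 4 sets every starved array was below every control array, against 50.4% of all probe sets whose groups did not overlap. These sets target the same transcripts in the same RNA and are not independent of each other. The mean of the 4 Pgd sets passed (-0.15, limma adjusted p = 0.0370), and the brightest set also passed in 5 other alternatives (adjusted p from 0.00983 to 0.207 over the alternatives for the gene). With probe sets that can match several transcripts left out, 1423706_a_at alone stands for Pgd, and it passed (adjusted p = 0.0377). The set that passed lost its call on leaving out any 1 array (limma adjusted p from 0.0526 without control replicate 1 to 0.114 without starved replicate 3).

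Pgls encodes the lactonase between G6pdx and Pgd. It read 10.11, 10.02 and 10.05 in control and 9.97, 9.90 and 10.12 in starved cells. Starved replicate 3 was above all 3 control arrays, and the groups overlapped. The difference was -0.06 ± 0.07 (limma adjusted p = 0.532), with a 95% interval of -0.23 to 0.10.

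Me1 encodes the cytosolic malic enzyme, which makes NADPH while it converts malate to pyruvate. Its brighter probe set read 10.25, 10.24 and 10.34 in control and 10.16, 10.25 and 10.18 in starved cells, with overlapping groups and a difference of -0.08 ± 0.06 (limma adjusted p = 0.333, 95% interval -0.21 to 0.05). The dimmer set, 1416632_at, read 9.96, 9.96 and 10.01 against 9.89, 9.90 and 9.82. There the groups did not overlap, but the difference of -0.11 ± 0.05 did not pass either (limma adjusted p = 0.174, 95% interval -0.23 to 0.02). A fall of Me1 as large as that of Idh1 or Rpia lies outside both intervals.

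The promoters of the members that moved are shown so that each change can be read beside its sequence, together with that of Me1, which did not pass. They come from RefSeq (GRCm38.p6), run from 250 bases before to 50 after the transcription start and are written 5′ to 3′ on the strand of the gene. The windows are chr1:65186430-65186729 for Idh1, chr6:70792126-70792425 for Rpia and chr9:86695865-86696164 for Me1, all on the minus strand, with chr7:141391910-141392209 for Taldo1 and chr14:30548881-30549180 for Tkt on the plus strand. Capitals mark matches, on either strand, to the antioxidant response element core TGACNNNGC, the sterol regulatory element core TCACNCCAC, the E-box CACGTG, the CCAAT box CCAAT or the GC box GGGCGG.
Idh1: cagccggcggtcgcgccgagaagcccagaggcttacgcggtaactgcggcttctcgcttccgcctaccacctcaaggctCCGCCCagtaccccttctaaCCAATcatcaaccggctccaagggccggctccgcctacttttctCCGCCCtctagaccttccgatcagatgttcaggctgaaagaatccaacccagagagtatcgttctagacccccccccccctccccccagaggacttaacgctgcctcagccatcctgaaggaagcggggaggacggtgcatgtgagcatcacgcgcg
Rpia: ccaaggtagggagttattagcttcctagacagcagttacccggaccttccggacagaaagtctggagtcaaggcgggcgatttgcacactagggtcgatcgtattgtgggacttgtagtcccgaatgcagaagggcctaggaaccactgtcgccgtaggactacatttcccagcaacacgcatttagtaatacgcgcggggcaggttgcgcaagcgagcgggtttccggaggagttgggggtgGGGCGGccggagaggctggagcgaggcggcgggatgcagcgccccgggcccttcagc
Taldo1: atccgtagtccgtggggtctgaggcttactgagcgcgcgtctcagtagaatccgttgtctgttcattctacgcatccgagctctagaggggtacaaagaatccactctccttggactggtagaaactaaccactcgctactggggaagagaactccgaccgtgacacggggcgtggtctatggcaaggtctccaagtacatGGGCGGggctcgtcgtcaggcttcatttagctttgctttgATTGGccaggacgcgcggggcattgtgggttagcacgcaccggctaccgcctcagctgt
Tkt: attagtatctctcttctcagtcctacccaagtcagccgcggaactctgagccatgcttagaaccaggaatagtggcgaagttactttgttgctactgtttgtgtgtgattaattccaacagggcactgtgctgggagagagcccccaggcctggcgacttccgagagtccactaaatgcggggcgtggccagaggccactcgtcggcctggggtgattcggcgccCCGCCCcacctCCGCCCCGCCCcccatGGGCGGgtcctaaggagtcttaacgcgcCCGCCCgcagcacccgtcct
Me1: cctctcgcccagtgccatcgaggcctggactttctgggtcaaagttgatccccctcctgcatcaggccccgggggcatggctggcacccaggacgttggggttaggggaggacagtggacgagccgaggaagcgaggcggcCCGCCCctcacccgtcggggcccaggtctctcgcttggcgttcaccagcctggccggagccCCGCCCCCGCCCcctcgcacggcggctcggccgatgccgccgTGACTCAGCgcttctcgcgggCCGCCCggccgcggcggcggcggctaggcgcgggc

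The Idh1 window held a CCAAT box on the same strand, its first base at position -151 from the start, and 2 GC boxes on the opposite strand. Rpia had a GC box at -7 and no other match, while Taldo1 had a GC box at -49 and a CCAAT box on the opposite strand at -9. The Tkt window held 5 GC boxes, 2 of which overlap by a base. Me1 had an antioxidant response element core at -6, with 4 GC boxes around it. Idh1 and Me1 each have another window that is not printed, and its matches differ. That of Me1 held a CCAAT box on the opposite strand and no other match, and that of Idh1 a GC box and no other match. Over all 32851 windows of this length, 12.4% held the antioxidant response element core, 1.24% the sterol regulatory element core, 7.15% the E-box, 37.4% the CCAAT box and 35.7% the GC box. Among the 11 windows of the 8 listed genes (Idh1, Pgd and Me1 have 2 each), 3 held the first, 0 the second, 0 the third, 4 the CCAAT box and 9 the GC box. The 3 were windows of G6pdx, Me1 and Pgd. In Pgd the match began at position 4, after the transcription start and so not upstream of it, and the other Pgd window held none. The CCAAT and GC boxes, the sites of the general factors NF-Y and Sp1, were added to the search after the values were known. A match is a string of letters and not a site shown to be bound.

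Around these enzymes, the other genes of the pathway and of ribose use had 3 of 10 measured members higher and 1 lower (median change 0.12), a share near that of all genes. H6pd, whose product carries out the first oxidative steps inside the endoplasmic reticulum, fell from 9.93 ± 0.08 (SD, n = 3) to 8.79 ± 0.06, a change of -1.14 ± 0.07 (limma adjusted p = 1.11e-05). This was larger than any change among the 7 members. The genes that rose were Prps2 (0.48 ± 0.06), Prps1 (0.41 ± 0.07) and Prpsap2 (0.39 ± 0.05). Prps1 and Prps2 encode phosphoribosyl pyrophosphate synthetases, which act on ribose 5-phosphate, and the product of Prpsap2 associates with those synthetases. Rpe, the epimerase of the reversible arm, differed by 0.06 ± 0.06 without passing (limma adjusted p = 0.470), as did Prpsap1 by 0.15 ± 0.07 (0.115). Prpsap1 passed without control replicate 3 (adjusted p = 0.0444), and all its alternatives gave 0.0310 to 0.271. 3 members of the list, Tktl1, G6pd2 and Rbks, were below the dim limit in both groups.

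In the list of other sources of NADPH and NADP, 3 of 8 measured genes were higher and 3 lower (median change 0.05). Over all genes the shares were 20.8% and 20.1%. Which cofactor each of these enzymes uses in the cells was not measured, so the counts do not describe NADPH production. Nnt, the mitochondrial transhydrogenase, fell by 0.33 ± 0.06 (limma adjusted p = 0.00216), with its other probe set at -0.61 ± 0.11, and Nadk, the kinase that makes NADP from NAD, fell by 0.29 ± 0.06 (0.00489). Glutamate dehydrogenase Glud1 rose by 0.37 ± 0.06 (limma adjusted p = 0.00242) and the mitochondrial malic enzyme Me2 by 0.30 ± 0.07 (0.00780). The other Me2 set, below the dim limit in both groups, did not pass (0.01 ± 0.06, limma adjusted p = 0.943). Idh2, the mitochondrial counterpart of Idh1, was at 10.52 ± 0.03 (SD, n = 3) in control and 10.64 ± 0.04 in starved cells. This difference of 0.12 ± 0.05 did not pass (limma adjusted p = 0.132, range over its alternatives 0.0357 to 0.295), and its direction is opposite to that of Idh1. Aldh1l1 was below the dim limit in both groups.

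Genes that supply the substrates of these enzymes fell in 7 of 10 and rose in 0, against 20.1% and 20.8% of all genes. The median change of the 10 was -0.32, and 5 of those 7 fell by less than 1. This list was also chosen with earlier results of these data known, so its counts are not a blind comparison. Beside the glucose transporter gene Slc2a1 (-1.79 ± 0.10) and the hexokinase gene Hk2 (-2.28 ± 0.08), which stand upstream of glucose 6-phosphate, falls were seen in Acly (-0.86 ± 0.06), which cleaves cytosolic citrate, and in the pyruvate carboxylase gene Pcx (-0.71 ± 0.08). The malate dehydrogenase genes Mdh1 (-0.07 ± 0.05) and Mdh2 (0.06 ± 0.06), whose products form and use malate, did not pass in their brightest probe sets (limma adjusted p = 0.369 and 0.494), while 1 dimmer Mdh1 set fell by 0.29 ± 0.07.

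The genes of enzymes that spend NADPH were described in 2 lists. Among those of fatty acid and sterol synthesis, all 8 measured were called lower (median change -1.13), against 20.1% of all genes. Like the other lists, this list was chosen with earlier results of these data known, so the count is not a blind comparison. The largest falls were those of Sqle (-2.91 ± 0.06), Fasn (-1.66 ± 0.08), Cyp51 (-1.39 ± 0.06) and Dhcr7 (-1.15 ± 0.06). Each of these 4 changed by more than Idh1. Among NADPH users in redox defence and biosynthesis, 5 of 11 were higher and 4 lower (median change 0.01), against 20.8% and 20.1% of all genes. The oxidase gene Nox4 rose by 1.16 ± 0.08, the quinone reductase gene Nqo1 by 0.66 ± 0.07 and mitochondrial thioredoxin reductase Txnrd2 by 0.37 ± 0.06, while carbonyl reductase Cbr1 fell by 0.33 ± 0.05 (limma adjusted p at most 0.00179 in each). Txnrd1 (0.01 ± 0.06) and catalase Cat (0.01 ± 0.07) did not pass. The count of 5 higher became 3 without control replicate 1, control replicate 2, starved replicate 1 or starved replicate 3. That of 4 lower became 3 on leaving out any 1 array.

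**Figure D3:**
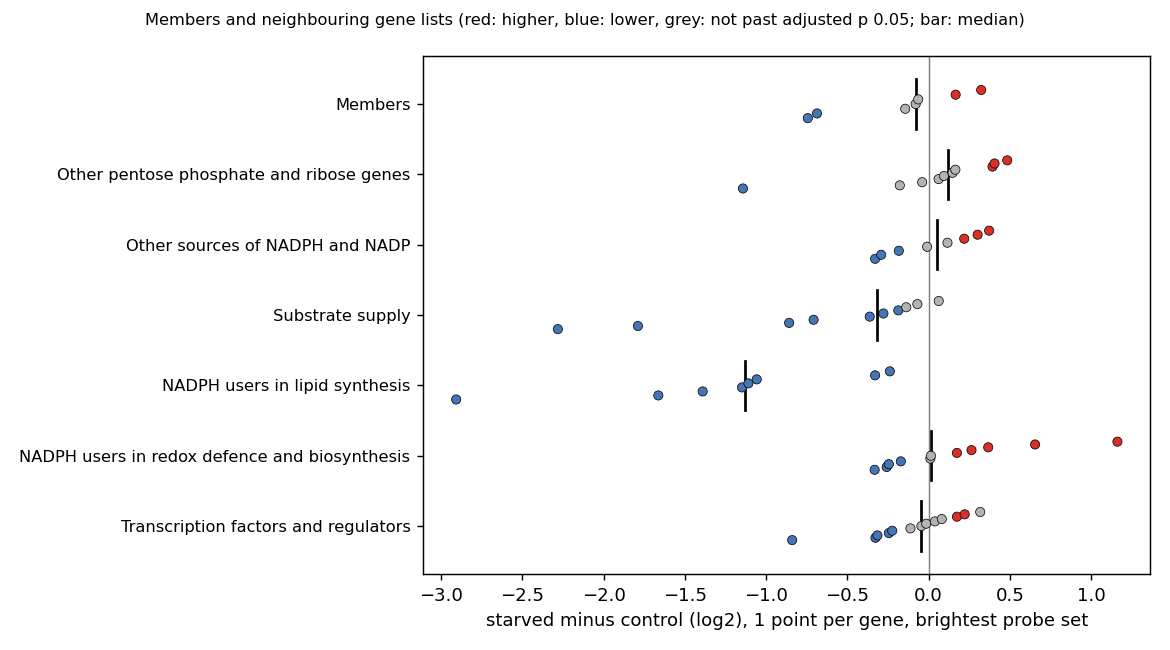
Changes (starved minus control, log2) of the 7 member genes and of 6 neighbouring lists, 1 point per gene in its brightest probe set, coloured by call, with a bar at each list's median. The members straddle 0 with 2 genes called on either side, whereas the 8 measured NADPH users of lipid synthesis all lie below 0. Members and lists were chosen with earlier results of these data known.

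Among 13 measured regulators known to act on genes of this group, 2 were called higher and 5 lower (median change -0.04), against 20.8% and 20.1% of all genes. Nfe2l2, which encodes NRF2, the activator bound to antioxidant response elements, went from 10.33 ± 0.02 (SD, n = 3) to 10.00 ± 0.05, a fall of 0.33 ± 0.05 (limma adjusted p = 0.00205). Srebf2, the gene of the sterol regulator SREBP2, fell by 0.84 ± 0.09 (limma adjusted p = 0.000172) and its partner gene Scap by 0.24 ± 0.07 (0.0198). The related gene Srebf1 rose instead, by 0.17 ± 0.05 (limma adjusted p = 0.0320). The other regulator called higher was Thra (0.22 ± 0.05, limma adjusted p = 0.0129), whose dimmer set did not pass (0.06 ± 0.09, 0.682). Mlx, whose product pairs with the glucose-sensing Mondo factors, fell by 0.31 ± 0.09 (limma adjusted p = 0.0197). Bach1, a repressor at the same elements as NRF2, differed by 0.08 ± 0.05 (0.284) and the deacetylase gene Sirt2 by -0.04 ± 0.05 (0.547) without passing, although the dimmer Bach1 set rose by 0.46 ± 0.07. Averaged over its 2 sets Bach1 passed (0.27, adjusted p = 0.00235; its alternatives ranged from 0.00235 to 0.466). Scap lost its call without control replicate 1 (0.0633), control replicate 3 (0.0586) or starved replicate 2 (0.0687). Mlx lost its call without starved replicate 2 (0.0556) or 3 (0.0674), and also with no moderation of the variances (0.0797). The count of 5 lower became 2 without starved replicate 2 and 3 without starved replicate 3, and that of 2 higher became 1 without control replicate 1, control replicate 2 or starved replicate 2.

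Idh1 had the largest change of the members, and the genes nearest to its pattern over the 6 arrays, each centred on its own mean, were Tle1, Hic1, Selenop, Cox7a2l and Ppargc1a. Their root mean square differences from Idh1 were 0.0136 to 0.0286 (log2), and their changes ran from -0.76 to -0.72. This likeness was read over 6 arrays of 2 groups, so it reflects mainly the gap between the groups.

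**Figure D4:**
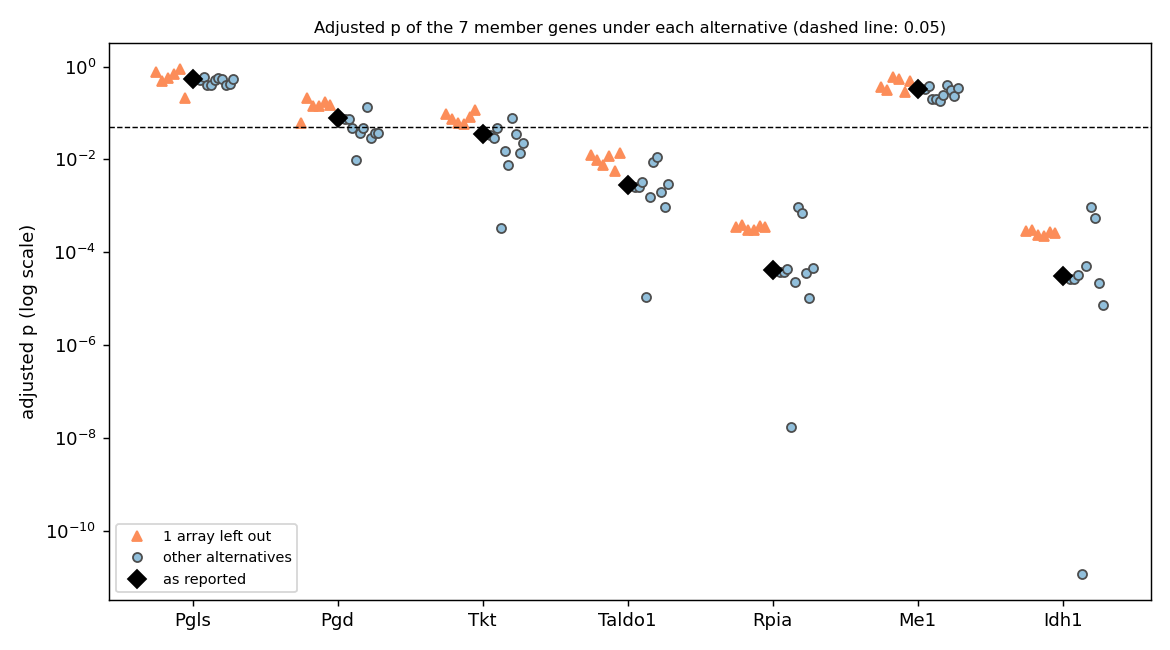
Adjusted p (log scale) of the 7 member genes in their brightest probe sets as reported (black diamonds), with 1 array left out (orange triangles) and under the other alternatives (blue circles). For Pgd, Tkt, Me1 and Idh1 the blue circles include the mean of the gene's sets. For Pgd and Tkt they also include another set in place of the brightest. Idh1, Rpia and Taldo1 stay below the dashed line at 0.05 at every point shown, Pgls and Me1 stay above it, and Tkt and Pgd cross it.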

How the data were processed

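Total RNA of 3 starved and 3 control samples, grouped by title, was biotin-labelled and read on 6 Affymetrix mouse arrays. The deposited log2 values are the authors' RMA values from affy, per the submitters' processing notes, which give no version. RMA quantile normalizes the arrays, which would hide a shift shared by most transcripts. Precision is limited by the number of arrays.

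64 of 22690 probe sets were Affymetrix controls and were set aside. The platform annotation named 1 gene for 20380 of the rest, several for 691 and none for 1555; Entrez identifiers changed 0 symbols. The test was limma's two-sided moderated comparison (version 3.58.1, R 4.3.3) with no covariate. Members and lists were chosen with earlier results of these data known. From each list, the text names at most 4 genes past the threshold by size of change and 2 more by level. Thra and Srebf1 are named besides, as the 2 regulators called higher. Genes like Idh1 were taken by the smallest root mean square difference. The script was checked on simulated arrays with known changes. It recovered 7.25% of changes of 0.25, 57.1% of those of 0.5 and 95.1% of those of 1. Only 69, 70 and 61 of 22626 probe sets were changed by these sizes, far fewer than were called in the data. These shares therefore need not hold for the data. Alternatives were another filter, normalization, variance model, probe set summary, threshold or adjustment, the replicate number as a block, and each array left out.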

Additional observations from a re-analysis of the deposited data

How the results depend on the processing

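Over 16 alternatives at the threshold of 0.05 the calls of Idh1, Rpia and Taldo1 were kept wherever a value was given; Idh1 has none once sets matching several transcripts are left out. Of 192 comparisons of a member probe set with an alternative, 30 changed side of the threshold, all in Pgd or Tkt, and 0 changed sign. For the named genes of the lists other than Thra and Srebf1, 10 of 543 such comparisons changed side. Leaving out 1 array gave 1 member gene higher and 2 lower each time, 3949 to 4429 probe sets higher and 3693 to 3965 lower, and 2222 to 2486 genes higher and 2111 to 2269 lower. By list it gave 3 to 5 redox users higher and 3 lower, and 1 to 2 regulators higher and 2 to 5 lower. It also gave 2 to 3 other NADPH sources higher and 2 to 3 lower. Substrate supply genes lower were 6 to 7, and other pentose phosphate genes higher were 3 to 4. Deviations of same-numbered arrays from their group means correlated at -0.0944, 0.0148 and -0.00833, and those of differently numbered arrays at -0.0813 to 0.0887. With 3 arrays per group, these values cannot settle whether same-numbered arrays share a batch. With the replicate block, Tkt did not pass (limma adjusted p = 0.0775), which left 1 member gene higher, and 3 redox users were higher. At a threshold of 0.01, 1 member gene was higher, 3 redox users were higher, and 0 regulators were higher and 2 lower. A minimum change of 1, by its construction, left 354 probe sets higher and 335 lower, 212 genes higher and 186 lower, and 0 member genes in either direction. It left 0 other pentose phosphate genes higher, 0 other NADPH sources higher and 0 lower, 2 substrate supply genes lower, 1 redox user higher and 0 lower, and 0 regulators higher and 0 lower. Other pentose phosphate genes lower were 2 on centring (which shifted all genes by -0.02), after a second quantile normalization (which also left 1 regulator higher), with an intensity trend, with the mean of all probe sets and without dim probe sets. The alternatives that work on 1 value per gene give no count of probe sets. The causes of these differences were not tested.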
